A study of Mus musculus with 6 samples.

Results

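The genes described here are those of MHC class I antigen presentation: the class I light chain B2m, the classical heavy chains H2-K1 and H2-D1, the peptide transporter subunits Tap1 and Tap2, the transporter-linked chaperone Tapbp, the immunoproteasome subunits Psmb8, Psmb9 and Psmb10, and the transactivator Nlrc5. They were chosen by name, and all 10 were found among the 17447 gene symbols of the deposited table. Total RNA of mouse heart was sequenced in 6 libraries. The CKD group held 3 heart samples from mice with chronic kidney disease, produced by surgical removal of the poles of the left kidney and, in a second operation, of the whole right kidney. The sham group held 3 heart samples from mice that were anaesthetized and opened, with the kidneys exposed and left intact. All 6 libraries carried the genotype wild type and a single batch label, while no strain, sex, age or time after surgery is stated in the labels. The samples were bulk tissue labelled heart, in which cardiomyocytes, endothelium, fibroblasts and leukocytes were read together, and fewer cells of a type cannot be told apart from less RNA per cell.

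Class I molecules display peptides from inside the cell to CD8+ T cells. The proteasome cuts proteins into peptides, TAP carries them into the endoplasmic reticulum, tapasin (Tapbp) holds an empty heavy chain and its light chain beside the transporter, and the loaded complex travels to the surface. Interferon gamma raises the whole set in most cells: Psmb8, Psmb9 and Psmb10 then take the places of the standard catalytic subunits Psmb5, Psmb6 and Psmb7, and NLRC5 acts on class I promoters through factors bound to their SXY module. Resting cardiomyocytes are known for low class I display, while endothelial cells and macrophages show more.

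Row labels were checked before any gene was read. Spearman's rho over the 17447 rows lay at 0.984 to 0.987 for pairs of CKD columns and at 0.982 to 0.985 for pairs of sham columns. For the 9 pairs of a CKD with a sham column it lay at -0.0586 to -0.0528. Psmb8 and Psmb9 were at 0 counts in each CKD column, while Myh6, the main myosin heavy chain of the adult mouse heart, had 0, 0 and 1 counts in CKD 1, 2 and 3, against 474768 in sham 3, 362529 in sham 1 and 443278 in sham 2. The values of the CKD columns thus did not stand beside their gene labels, and no comparison of CKD with sham was made for these genes. All further values are from the sham hearts, whose column totals were 12669724 (sham 3), 10480788 (sham 1) and 10474487 (sham 2). Levels are given in CPM: each count was divided by its column's total and multiplied by 1000000. Intervals are 95% limits for counting error in a single heart (exact Poisson for a level, exact conditional binomial for a ratio), and reads without molecular identifiers are not independent molecules. The labels number the sham samples, called hearts here, but do not state that each is a separate animal, and differences between hearts were described with no test. The 3 sham hearts differed widely in atrial transcripts: Myl7, the atrial myosin light chain, was at 81.5 CPM in sham 3, 497 in sham 1 and 1.43 in sham 2. Sln, the atrial calcium pump inhibitor sarcolipin, was at 16.2 CPM in sham 3, 110 in sham 1 and 0.191 in sham 2, and Myl4, another atrial light chain, at 100.2 CPM in sham 3, 572 in sham 1 and 2.39 in sham 2. These 3 transcripts were thus highest in sham 1 and near 0 in sham 2, an order other than that of the class I genes. Other atrial markers were also highest in sham 1, but not all were near 0 in sham 2. Nppa was at 64.4 CPM in sham 2 and Kcnj3 at 121.

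Promoter windows of the class I genes are shown first, because the genes were high and low in the same hearts and because H2-K1 and H2-D1 are close copies. The windows run from 250 bases before to 50 after a RefSeq transcript start (GRCm38.p6, a later build than the mm9 of the submitters' processing notes), and 8 of the 10 genes matched, H2-K1 with 2 starts of which 1 is printed. Nlrc5 and Tap2 had no window and are named only. Windows of B2m, H2-K1, H2-D1, Psmb8 and Tap1 are printed, each 5′ to 3′ on the strand of its gene. Those of Tapbp, Psmb9 and Psmb10 were searched but are not printed, and the Psmb10 window held no match. Capitals mark matches, on either strand, to the core of the interferon-stimulated response element (GAAA, any 2 bases, GAAA), to the core of the gamma-activated sequence TTCNNNGAA, and to CCAAT, the box bound by NF-Y; no matches overlapped.
B2m, chr2:122147437-122147736, plus strand: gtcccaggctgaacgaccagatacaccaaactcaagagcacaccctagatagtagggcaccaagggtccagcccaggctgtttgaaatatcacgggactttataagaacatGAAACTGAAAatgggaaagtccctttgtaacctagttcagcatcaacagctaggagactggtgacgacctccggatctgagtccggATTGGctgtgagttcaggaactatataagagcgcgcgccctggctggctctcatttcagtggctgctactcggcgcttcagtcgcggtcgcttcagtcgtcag
H2-K1, chr17:34000284-34000583, minus strand: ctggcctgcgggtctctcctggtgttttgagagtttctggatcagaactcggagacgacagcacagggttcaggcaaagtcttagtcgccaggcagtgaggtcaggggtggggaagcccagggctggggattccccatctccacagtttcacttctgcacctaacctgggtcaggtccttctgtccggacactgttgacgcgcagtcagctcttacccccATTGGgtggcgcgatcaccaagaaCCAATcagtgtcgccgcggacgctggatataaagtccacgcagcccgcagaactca
H2-D1, chr17:35262844-35263143, plus strand: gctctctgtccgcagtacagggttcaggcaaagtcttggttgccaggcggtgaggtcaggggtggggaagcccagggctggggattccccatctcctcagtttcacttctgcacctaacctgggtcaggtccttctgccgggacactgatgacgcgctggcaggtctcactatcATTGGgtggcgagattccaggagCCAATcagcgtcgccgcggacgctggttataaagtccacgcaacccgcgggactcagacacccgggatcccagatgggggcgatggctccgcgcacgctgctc
Psmb8, chr17:34197945-34198244, plus strand: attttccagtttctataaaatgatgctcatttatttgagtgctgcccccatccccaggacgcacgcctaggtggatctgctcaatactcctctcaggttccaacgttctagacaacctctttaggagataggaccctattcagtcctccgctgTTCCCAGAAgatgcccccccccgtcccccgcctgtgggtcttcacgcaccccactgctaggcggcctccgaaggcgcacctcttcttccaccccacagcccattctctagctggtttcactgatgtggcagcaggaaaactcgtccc
Tap1, chr17:34187306-34187605, plus strand: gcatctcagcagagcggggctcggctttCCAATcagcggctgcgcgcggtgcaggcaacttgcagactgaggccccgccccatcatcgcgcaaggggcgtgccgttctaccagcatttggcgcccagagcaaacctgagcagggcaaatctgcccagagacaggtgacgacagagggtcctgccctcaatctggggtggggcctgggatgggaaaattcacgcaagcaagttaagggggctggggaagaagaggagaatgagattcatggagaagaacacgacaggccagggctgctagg

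The response element core was found in 1 of the 8 genes, B2m, and in 3.99% of all 27025 genes with a window. The gamma-activated core was also found in 1 of the 8, Psmb8, and in 9.55% of all genes. CCAAT was found in 6 of the 8 genes and in 41.1% of all genes, with 1 site that the overlapping windows of Tap1 and Psmb9 share counted for both. A match is a description of these letters, and its absence says only that these letters are not in the window. The H2-K1 and H2-D1 windows were identical at 87.7% of 253 aligned bases. Their longest common run was 47 bases, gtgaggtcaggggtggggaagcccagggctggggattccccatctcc, and in the whole table it occurred in the windows of these 2 genes alone. Tap1 and Psmb9 lie head to head, and their windows overlap over 275 bases on opposite strands, so the Tap1 sequence above also holds most of the Psmb9 window.

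The close copies bear on how far each level can be trusted. Of all distinct 50-base windows in the coding transcripts of H2-D1 (GENCODE vM21), 13.9% also occurred in transcripts of other genes, mostly of H2-Q1 and H2-K1. For H2-K1 the share was 6.87%. For Psmb9 it was 9.71%, all with Tap1, and for Tapbp 22.4%, mostly with Gm19412, which overlaps it in the annotation. Tap2 shared 12.1% of its windows, mostly with Gm15821, Tap1 6.27%, mostly with Psmb9, and Psmb8 5.51%, all with Gm20496. B2m, Psmb10 and Nlrc5 shared 0 windows. The labels do not state how shared reads were counted, or whether by strand, so the levels of H2-K1, H2-D1, Tapbp, Tap1, Tap2, Psmb8 and Psmb9 are uncertain to that extent. Class I heavy chains also differ between mouse strains, and whether the strain used here affected their counts was not tested.

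The light and heavy chains were the highest of the 10 genes, also per kilobase of coding sequence. B2m, whose product is shared by all class I molecules, had 10901 counts (860.4 CPM) in sham 3, 5204 (497 CPM) in sham 1 and 2385 (228 CPM) in sham 2. H2-K1 had 6059 counts (478 CPM) in sham 3, 2530 (241 CPM) in sham 1 and 1354 (129 CPM) in sham 2. H2-D1 had 7187 counts (567 CPM) in sham 3, 3438 (328 CPM) in sham 1 and 1998 (191 CPM) in sham 2. All 3 genes were highest in sham 3 and lowest in sham 2, with no overlap of the counting intervals. B2m was 1.73-fold higher in sham 3 than in sham 1 (95% interval 1.68 to 1.79) and 3.78-fold higher than in sham 2 (3.61 to 3.95). The heavy chains kept the light chain's order of hearts, but not a constant ratio of counts to it. H2-K1 relative to B2m stood at 0.556 in sham 3 (0.539 to 0.574), 0.486 in sham 1 (0.463 to 0.510) and 0.568 in sham 2 (0.531 to 0.607). H2-D1 relative to B2m stood at 0.659 in sham 3 (0.640 to 0.679), 0.661 in sham 1 (0.633 to 0.690) and 0.838 in sham 2 (0.789 to 0.889). The interval of sham 1 for H2-K1, and that of sham 2 for H2-D1, lay apart from both other hearts.

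**Figure D1:**
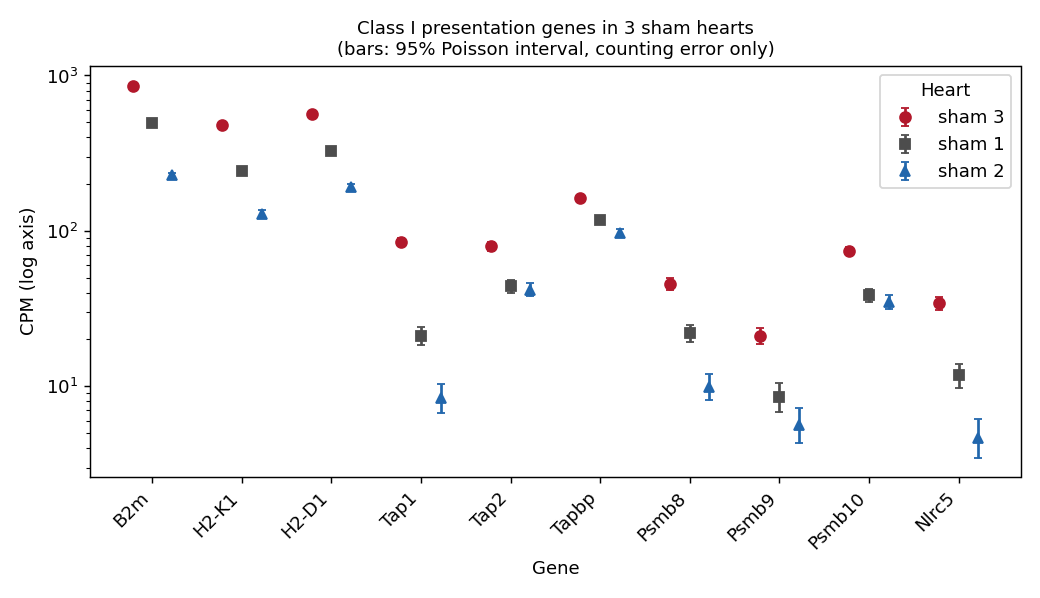
Level of each of the 10 genes in CPM on a log axis, with circles for sham 3, squares for sham 1 and triangles for sham 2, and bars for the 95% Poisson interval of the single heart. All 10 genes are highest in sham 3 and lowest in sham 2, with B2m at 860.4 CPM in sham 3 and 228 CPM in sham 2.

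Within the peptide transporter the 2 subunits differed in spread. Tap1 had 1069 counts (84.4 CPM) in sham 3, 220 (21.0 CPM) in sham 1 and 88 (8.40 CPM) in sham 2. Tap2, its partner in the heterodimer, had 1008 counts (79.6 CPM) in sham 3, 460 (43.9 CPM) in sham 1 and 439 (41.9 CPM) in sham 2. Tap1 thus differed between all 3 hearts, while Tap2 was high in sham 3 alone. Its fold of sham 1 over sham 2 was 1.05, with an interval (0.917 to 1.196) that included no difference, and 0.9803 with TMM scaling. Tap1 was 4.02-fold higher in sham 3 than in sham 1 (3.47 to 4.67) and 10.04-fold higher than in sham 2 (8.08 to 12.6), the largest folds among the 10 genes. Tap1 relative to Tap2 stood at 1.06 in sham 3, 0.478 in sham 1 and 0.2005 in sham 2, and the intervals of these ratios did not overlap. Tapbp, the chaperone tapasin, had 2052 counts (162 CPM) in sham 3, 1229 (117 CPM) in sham 1 and 1020 (97.4 CPM) in sham 2. It varied least of the 10, with 1.38-fold (1.29 to 1.48) for sham 3 over sham 1 and 1.66-fold (1.54 to 1.79) for sham 3 over sham 2.

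Immunoproteasome subunits were all highest in sham 3. Psmb8, the chymotrypsin-like subunit LMP7, had 577 counts (45.5 CPM) in sham 3, 230 (21.9 CPM) in sham 1 and 104 (9.93 CPM) in sham 2. Psmb9, the subunit LMP2, had 267 counts (21.1 CPM) in sham 3, 89 (8.49 CPM) in sham 1 and 59 (5.63 CPM) in sham 2. Psmb10, the subunit MECL-1, had 943 counts (74.4 CPM) in sham 3, 403 (38.5 CPM) in sham 1 and 367 (35.04 CPM) in sham 2. Psmb8 and Psmb9 also differed between sham 1 and sham 2, at 2.21-fold (1.75 to 2.81) and 1.51-fold (1.07 to 2.13), whereas for Psmb10 the interval of that fold, 0.9503 to 1.27, included no difference. Psmb10 relative to Psmb8 accordingly stood at 1.63 in sham 3, 1.75 in sham 1 and 3.53 in sham 2.

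The standard catalytic subunits served as a comparison from the same complex. Psmb5 was at 88.5 CPM in sham 3, 84.9 in sham 1 and 92.9 in sham 2, and Psmb6 at 146 CPM in sham 3, 151 in sham 1 and 147 in sham 2. Psmb7 was at 159.8 CPM in sham 3, 157 in sham 1 and 159 in sham 2. Their folds between hearts lay between 0.914 and 1.04, and the summed level of all 3 was 394 CPM in sham 3, 393 in sham 1 and 399 in sham 2. Summed over the 3 immunoproteasome subunits it was 141 CPM in sham 3, 68.9 in sham 1 and 50.6 in sham 2. Of the counts of Psmb8 and Psmb5 together, Psmb8 held 34.0% in sham 3 (exact binomial interval 31.7 to 36.3%), 20.5% in sham 1 (18.2 to 23.02%) and 9.66% in sham 2 (7.96 to 11.6%). Psmb9 held 12.6% of the counts of Psmb9 and Psmb6 in sham 3 (11.2 to 14.1%), 5.31% in sham 1 (4.29 to 6.49%) and 3.69% in sham 2 (2.82 to 4.74%). Psmb10 held 31.8% of the counts of Psmb10 and Psmb7 in sham 3 (30.1 to 33.5%), 19.7% in sham 1 (18.0 to 21.5%) and 18.0% in sham 2 (16.4 to 19.8%). For each pair the share was highest in sham 3, with an interval apart from both other hearts, and for the first pair alone the intervals of sham 1 and sham 2 were also apart. Scaled to coding length, the mean shares over 3 hearts were 20.7% ± 11.9 for Psmb8, 7.77% ± 5.09 for Psmb9 and 23.4% ± 7.56 for Psmb10 (SD, n = 3). From the counts themselves the mean for Psmb9 was 7.21% ± 4.75 (SD, n = 3), and 4.50% without sham 3.

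**Figure D2:**
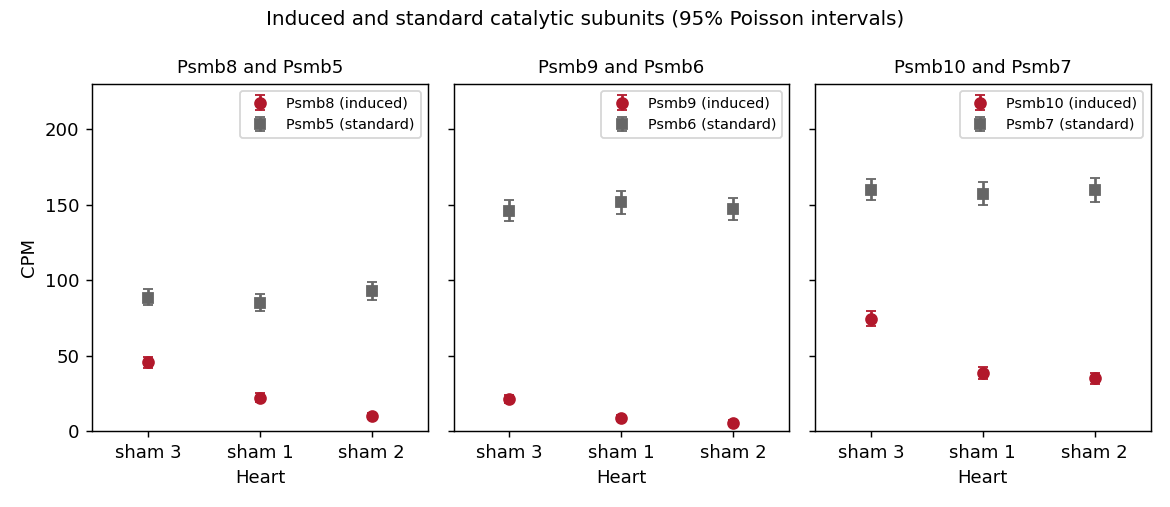
CPM of each induced subunit (circles) and of the standard subunit it replaces (squares) in sham 3, sham 1 and sham 2, on a linear axis from 0, with 95% Poisson intervals. The standard subunits stay between 84.9 and 159.8 CPM with little difference between hearts, while Psmb8 is at 45.5 CPM in sham 3 and 9.93 CPM in sham 2.

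Nlrc5, the transactivator of class I genes, was the lowest of the 10 per length and spread widely. It had 432 counts (34.1 CPM) in sham 3, 123 (11.7 CPM) in sham 1 and 49 (4.68 CPM) in sham 2. It was 2.91-fold higher in sham 3 than in sham 1 (2.37 to 3.58) and 7.29-fold higher than in sham 2 (5.42 to 10.01), next after Tap1. Factors that bind the SXY module had smaller folds than Nlrc5. RFX subunit gene Rfx5 was at 11.4 CPM in sham 3, 11.2 in sham 1 and 7.92 in sham 2. Of 8 genes on that list, 0 reached 1.5-fold in any of the 3 pairs of hearts. Among all genes, 7.92% did so for sham 3 over sham 1, 15.0% for sham 3 over sham 2 and 13.0% for sham 1 over sham 2. A count of 0 of 8 is not far from those shares.

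Set per kilobase of coding sequence, the baseline order of mean levels over 3 hearts was B2m (1467 ± 882 CPM per kilobase), H2-D1 (332 ± 175), H2-K1 (255 ± 160), Tapbp (89.6 ± 23.6), Psmb10 (60.0 ± 26.6), Psmb8 (31.1 ± 21.8), Tap2 (26.1 ± 10.05), Psmb9 (17.8 ± 12.4), Tap1 (17.4 ± 18.7) and Nlrc5 (2.93 ± 2.67). In 7 of the 9 steps of that order the higher gene was higher in each of the 3 hearts. The steps from Psmb8 to Tap2 and from Psmb9 to Tap1 held in 2 of 3 hearts and turned round when merged exon length was used in place of coding length. Apart from the step from B2m to H2-D1, neighbours overlapped within 1 SD or came within their joint SDs. These SDs are the spread between hearts, with sham 3 highest for every gene, so they do not measure how firm the order is within a heart. Sham 3 weighed on these means: without it, the mean level in CPM was 14.7 in place of 37.9 for Tap1, 8.21 in place of 16.8 for Nlrc5, 7.06 in place of 11.7 for Psmb9, 15.9 in place of 25.8 for Psmb8 and 185 in place of 283 for H2-K1, the 5 genes moved by more than 1.5-fold.

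Together, the 10 genes summed to 2407 CPM in sham 3, 1329 in sham 1 and 751 in sham 2. All 10 were highest in sham 3, as were 42.0% of the 12491 genes with a mean of at least 1 CPM. All 10 also stood in the order sham 3, sham 1, sham 2, from high to low, as did 25.4% of all genes; with TMM or DESeq2 scaling Tap2 left that order. At 1.5-fold or more, 9 of the 10 were higher in sham 3 than in sham 1 (7.92% of all genes), with Tapbp the exception. In sham 3 over sham 2 all 10 were past that fold (15.0% of all genes), and in sham 1 over sham 2 it was 7 (13.0% of all genes), without Tap2, Tapbp and Psmb10. The median fold for sham 3 over sham 1 was 1.96 for the 10 genes and 1.01 for all genes, that for sham 3 over sham 2 was 3.72 and 1.08, and that for sham 1 over sham 2 was 1.79 and 1.06. These pairs share hearts and are not independent. Sham 2 stood lower for most genes on this scale, by 0.11 on the log2 scale against sham 3, and TMM scaling removed that shift and left a median fold of 3.46 for the 10 genes. The coefficient of variation between hearts ran from 26.3% for Tapbp to 107% for Tap1, with a median of 61.5% over the 10 and 11.8% over all 12491 genes.

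**Figure D3:**
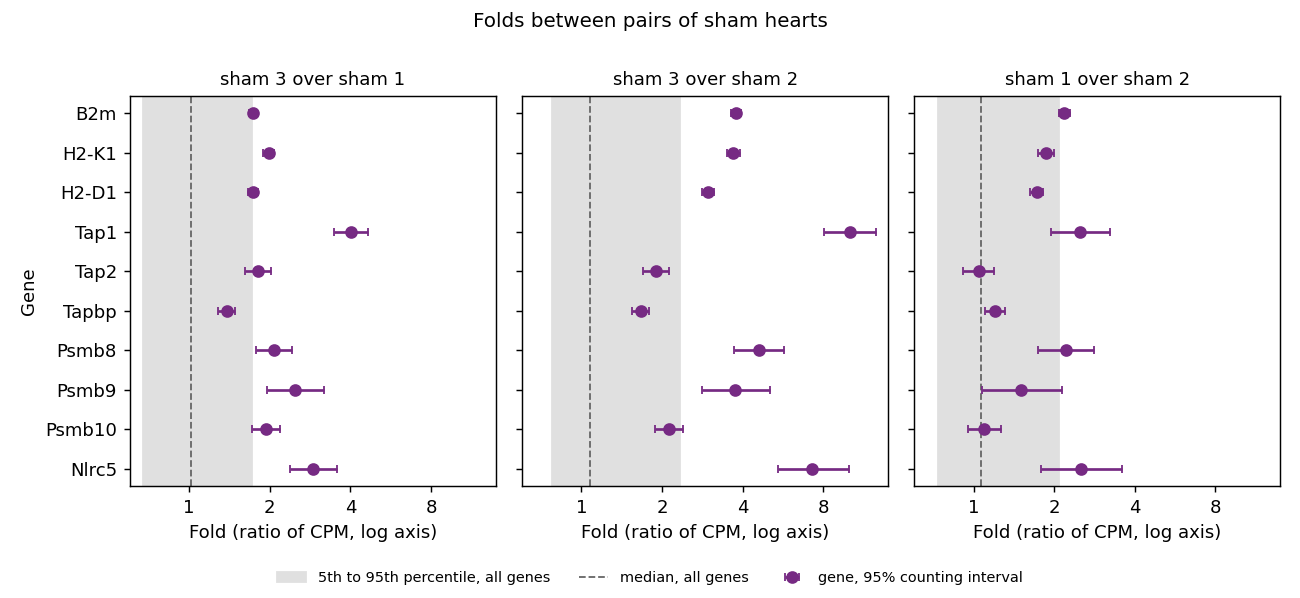
Fold of each of the 10 genes for sham 3 over sham 1, sham 3 over sham 2 and sham 1 over sham 2, as a ratio of CPM on a log axis with 95% counting intervals; the grey band spans the 5th to 95th percentile of genes with a mean of at least 1 CPM and the dashed line is their median. Tap1 and Nlrc5 lie farthest to the right for sham 3 over sham 2, at 10.04 and 7.29, and Tapbp lies inside the band in each panel.

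Other genes of the pathway are given by role. Of the remaining 11 subunits of the 20S core, 0 reached 1.5-fold in any pair of hearts. Past that fold were 7.92% of all genes for sham 3 over sham 1, 15.0% for sham 3 over sham 2 and 13.0% for sham 1 over sham 2. A count of 0 of 11 is not far from those shares. Median folds of the 11 were 1.05 for sham 3 over sham 1 and 1.02 for sham 3 over sham 2. Among the proteasome activators, Psme2, a subunit of the interferon-inducible PA28 cap, was at 60.1 CPM in sham 3, 33.1 in sham 1 and 32.6 in sham 2. Its partner Psme1 was at 177 CPM in sham 3, 138 in sham 1 and 142 in sham 2, and Psme3, a subunit of the nuclear cap, at 81.5 CPM in sham 3, 89.7 in sham 1 and 90.9 in sham 2. All 6 genes of peptide loading and trimming were highest in sham 3, as were 42.0% of all genes with a mean of at least 1 CPM. Margins were small for the general chaperones calreticulin (Calr, 417 CPM in sham 3, 361 in sham 1, 310 in sham 2) and calnexin (Canx, 369.9 CPM in sham 3, 337 in sham 1, 338 in sham 2). Past 1.5-fold in both comparisons with sham 3 was the tapasin-related editor Tapbpl, with 16.3 CPM in sham 3, 9.45 in sham 1 and 10.2 in sham 2. Erap1, the aminopeptidase that trims peptides in the endoplasmic reticulum, was at 74.7 CPM in sham 3, 53.2 in sham 1 and 47.1 in sham 2, or 1.59-fold for sham 3 over sham 2.

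Of 21 other class I and class I-like genes, 16 were found under their symbols and 11 averaged at least 1 CPM. Of those 11, 10 were highest in sham 3, as were 42.0% of all genes at that level. H2-Q4 was the highest of the class Ib genes, with 117 CPM in sham 3, 64.9 in sham 1 and 32.0 in sham 2. H2-T23, which encodes Qa-1, was at 81.4 CPM in sham 3, 33.1 in sham 1 and 26.3 in sham 2. These share sequence with H2-K1 and H2-D1 and are uncertain in the same way. Of the class I-like genes with other duties, Fcgrt and Hfe stood closer together. Fcgrt, the neonatal Fc receptor, was at 93.0 CPM in sham 3, 88.8 in sham 1 and 76.9 in sham 2. Hfe was at 67.7 CPM in sham 3, 63.1 in sham 1 and 55.85 in sham 2. Cd1d1 did not, with 3.79 CPM in sham 3, 3.05 in sham 1 and 1.81 in sham 2. Its fold for sham 3 over sham 2 was 2.09, with a counting interval of 1.21 to 3.76. Mr1, which presents vitamin B metabolites, was the exception to sham 3 being highest. It was at 23.7 CPM in sham 3, 30.6 in sham 1 and 19.8 in sham 2. Class II genes present peptides to CD4+ T cells. Of 11 listed, 7 averaged at least 1 CPM and all 7 were highest in sham 3, as were 42.0% of all genes at that level. Cd74, the invariant chain, was at 288 CPM in sham 3, 189 in sham 1 and 112 in sham 2.

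Upstream of the pathway, receptors and factors differed. Receptor genes Ifngr1 and Ifngr2 were at 69.7 and 210.3 CPM in sham 3, 71.0 and 217 in sham 1, and 57.1 and 209 in sham 2. The kinases Jak1 and Jak2 stayed within 1.21-fold between any of the hearts. Irf1, an activator of class I genes, was at 96.9 CPM in sham 3, 23.6 in sham 1 and 21.5 in sham 2. It was high in sham 3 alone, with a fold of sham 1 over sham 2 of 1.10, where the 10 class I genes ran from 1.05 for Tap2, 1.10 for Psmb10 and 1.204 for Tapbp up to 2.51 for Nlrc5. The 14 measured interferon response genes were all highest in sham 3, as were 42.0% of all genes with a mean of at least 1 CPM. Their summed level was 1002 CPM in sham 3, 220.5 in sham 1 and 141 in sham 2. The interferon gamma gene Ifng had 0 counts in each of the 3 sham hearts, where the limit of 3 counts set for a count of 0 comes to 0.286 CPM in sham 2. The other 8 listed interferon genes were not found under their symbols and could not be read.

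**Figure D4:**
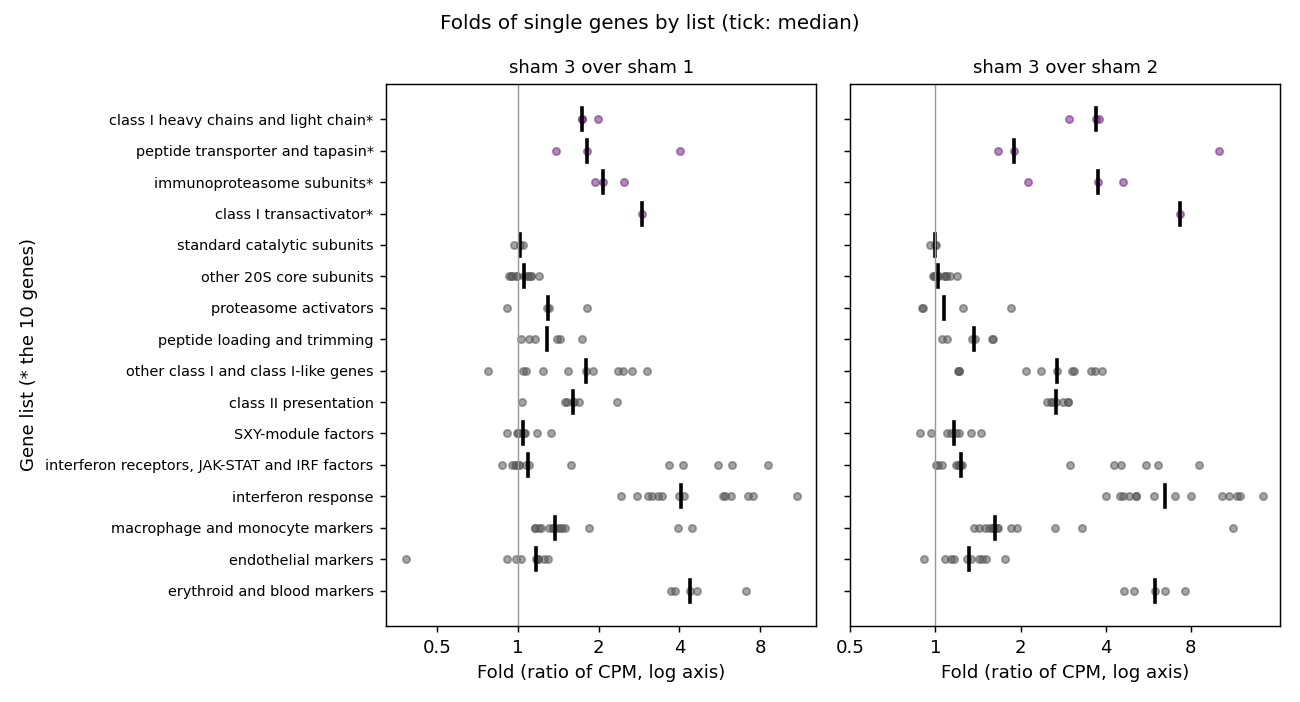
Fold of single genes with a mean of at least 1 CPM, by list, for sham 3 over sham 1 and sham 3 over sham 2, as a ratio of CPM on a log axis; each dot is a gene, the black tick the median, and asterisks mark the 10 class I genes. Standard and other 20S core subunits sit near 1, with medians of 1.02 and 1.05 for sham 3 over sham 1, while the 3 immunoproteasome subunits have a median of 2.08.

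Markers of other cells differed between the hearts, some in the same order as the class I genes and some not. Of 15 macrophage and monocyte markers, 14 averaged at least 1 CPM and all 14 were highest in sham 3, as were 42.0% of all genes at that level. The list sum was 825 CPM in sham 3, 626 in sham 1 and 495 in sham 2. The median fold of these 14 was 1.38 for sham 3 over sham 1 and 1.63 for sham 3 over sham 2. Lyz2, the most abundant, was at 1.16-fold for sham 3 over sham 1 and 1.64-fold for sham 3 over sham 2. The fractalkine receptor gene Cx3cr1 was at 4.44-fold for sham 3 over sham 1 and 11.2-fold for sham 3 over sham 2. The leukocyte marker Ptprc (CD45) was at 1.83-fold for sham 3 over sham 1 and 2.64-fold for sham 3 over sham 2. All 5 erythroid genes at 1 CPM or more were highest in sham 3, as were 42.0% of all genes at that level. Their list sum was 486 CPM in sham 3, 111 in sham 1 and 83.2 in sham 2. Of 14 T and NK cell markers only Cd4 averaged 1 CPM, and the list sum was 7.42 CPM in sham 3, 6.58 in sham 1, and 2.48 in sham 2. Markers of endothelium summed to 2034 CPM in sham 3, 1851 in sham 1 and 1672 in sham 2, with 6 of 10 highest in sham 3. Fibroblast markers summed to 4332 CPM in sham 3, 3932 in sham 1 and 2165 in sham 2, with 6 of 8 highest in sham 3. Both counts stand against the 42.0% of all genes highest in sham 3. Dendritic cell markers summed to 30.9 CPM in sham 3, 21.8 in sham 1 and 14.6 in sham 2, and 2 of 6 averaged 1 CPM. Most of that sum was Zbtb46 alone, at 27.5 CPM in sham 3, 18.4 in sham 1 and 13.8 in sham 2. Flt3, Xcr1, Cd209a and Clec9a averaged under 1 CPM. B cell markers summed to 3.63 CPM in sham 3, 4.01 in sham 1 and 2.00 in sham 2. Neutrophil markers summed to 5.68 CPM in sham 3, 9.73 in sham 1 and 9.83 in sham 2, with Camp at 0 counts in each heart. All 11 ventricular cardiomyocyte markers averaged at least 1 CPM in these columns labelled heart. They summed to 128909 CPM in sham 3, 129340 in sham 1 and 143170 in sham 2. Of the 11, 10 were highest in sham 2, with a median fold of 0.897 for sham 3 over sham 2. The shares of all genes highest in sham 1 and in sham 2 were not computed, so this count and the atrial count have no background. All 8 atrial markers were highest in sham 1, as given above for Myl7, Sln and Myl4. Clu, also on that list, differed less, at 996 CPM in sham 3, 1075 in sham 1 and 882 in sham 2. Kcnj3 was lowest in sham 3, at 89.7 CPM, against 169 in sham 1 and 121 in sham 2. Bmp10 was near 0 in sham 3 as well as in sham 2, at 0.158 and 0.0955 CPM, against 24.9 in sham 1. The part of these cells, and of the tissue sampled, in the class I levels was not tested.

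Similar profiles were sought with the class I genes and every gene of the lists used here set aside. Class Ib, class II, interferon and marker genes of those lists could thus not appear among the nearest. Among the 8731 remaining genes with a mean of at least 10 CPM, log2 profiles over the 3 hearts were compared with the median class I profile. The 10 nearest were Trim12c, Nmi, Apod, Slfn2, Col5a2, Myh11, Ifi204, Ctss, Adcy7 and Gbp2. Their Euclidean distances were 0.07 to 0.26 on the log2 scale, where the 5th percentile of all these genes was 0.87. Trim12c, the nearest, was at 33.7 CPM in sham 3, 15.8 in sham 1 and 9.55 in sham 2. A likeness over 3 hearts is a description of these libraries.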

How the data were processed

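Total RNA from 3 CKD and 3 sham mouse hearts was sequenced, and the deposited table gives raw counts per gene symbol with 1 column per heart, matched by name. Trimmomatic, HISAT2, HTSeq, DESeq and the build mm9 are named in the submitters' processing notes; settings, strand and annotation are not stated there. Column totals were 10474487 to 12669724 counts in sham, so that a count of 0 allows 3 counts, or 0.237 to 0.286 CPM, in a sham column. All rows named a gene.

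From the counts, CPM, folds for each pair of sham hearts, list sums and shares of catalytic subunits were computed (Python 3.11.15, pandas 2.3.3, scipy 1.17.1), with scripts tested on simulated data. Fold counts used 1.5-fold and genes with a mean of at least 1 CPM. No test between hearts was made, each being a single sample. TMM (edgeR 4.0.16) and DESeq2 1.42.0 size factors, in R 4.3.3, were alternatives. Lengths and 50-base windows came from GENCODE vM21, promoters from RefSeq, both GRCm38, with no coordinates joined to the counts. Genes and lists were chosen with earlier results of these data known. The genes named were the 10 class I genes, listed genes with the highest level or the largest or smallest fold of their list, a few further listed genes picked for their role or after their values were seen, and the 10 nearest profiles.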

Additional observations from a re-analysis of the deposited data

How the results depend on the processing

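All 50 alternative means of the 10 genes moved by less than 1 SD, which leaving out 1 of 3 hearts cannot exceed. With TMM, DESeq2 size factors or totals without the 100 highest genes, 76 of 90 folds stayed within their counting interval and 12 moved out of it in the same direction, while Tap2 in sham 1 over sham 2 was 0.9803 with TMM and 0.977 with DESeq2 size factors, against 1.05, both inside its counting interval. The number of the 10 genes past 1.5-fold in sham 1 over sham 2 was 7, and 6 with TMM and DESeq2. At 2-fold, 4 of the 10 were past it in sham 3 over sham 1 and 4 in sham 1 over sham 2, with 2.99%, 7.18% and 5.50% of all genes for sham 3 over sham 1, sham 3 over sham 2 and sham 1 over sham 2. At 1.2-fold the shares of all genes were 21.8%, 32.9% and 29.2%. Among genes of at least 10 CPM, and at 1.5-fold, they were 3.89%, 7.28% and 6.16%. Lower thresholds and low counts admit more genes by construction. The share of all genes highest in sham 3 was 52.8% without sham 2 and 65.2% without sham 1, as fewer hearts compete. With 1 heart left out, mean shares of the catalytic subunits were 15.1 to 27.3% for Psmb8, 4.50 to 8.96% for Psmb9 and 18.8 to 25.7% for Psmb10. With merged exon length, chosen after the data were seen, they were 13.4%, 4.42% and 21.1% for Psmb8, Psmb9 and Psmb10. Counts of lists highest in sham 3 stayed within 1.5 times in 54 of 60 alternatives. No paired analysis was possible because the CKD columns do not match their gene labels, and no fit of CKD with sham was made.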
